A study of Chlamydomonas reinhardtii with 18 samples.

Results

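The genes described here had an empty name field in the deposited table and reached their highest transcript level 30 min after Chlamydomonas cells were washed into medium without iron. They were chosen on 8 columns of FPKM (fragments mapped to a gene, scaled to transcript length and library size), from post-wash to 240 min, by an empty name field, a highest FPKM of 5 or more, a ratio of highest to lowest FPKM (each + 1) of 4 or more, and the highest value at 30 min. This gave 191 of the 17741 genes in the table, out of 15993 with an empty name field and 899 of those that met the level and ratio criteria. "Unnamed" held only in part: 61 of the 191 carried a symbol among their synonyms and 30 carried a product line or description, so that 129 had neither. Symbols below are those listed as synonyms, and a gene without one is given by its identifier.

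Chlamydomonas reinhardtii is a unicellular green alga that lives by photosynthesis, by respiration of acetate, or by both. All 18 samples were strain CC-4532, grown under constant illumination (90 µmol m-2 s-1) in acetate-containing TAP medium at 24 °C. Cells were pelleted at 2500 g for 5 min, washed, and put back into TAP made with 0 µM Fe-EDTA; the iron content before the wash is not stated here. Each of the 9 groups has 2 cultures, and sampling took place before the wash, directly after it, and then from 5 to 240 min. The deposited table gives 1 FPKM value per gene and group for both cultures together, so values carry no replicate error, sequencing depth is unknown, and differences are described without tests. No group was washed into iron-replete medium, so the wash, the fresh medium and the absence of iron cannot be told apart. The values that chose the genes (post-wash to 240 min) are given as a description; the pre-wash column alone took no part in the choice.

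Several of the annotated members belong to ribosome assembly. In eukaryotes this begins in the nucleolus, where RNA polymerase I transcribes ribosomal RNA, small nucleolar ribonucleoproteins (snoRNPs) guide its cleavage and chemical modification, and RNA helicases and GTPases release the assembling subunits step by step. The process takes a large share of a growing cell's resources and is known to be adjusted to growth and nutrient supply. Other annotated members encode transporters, redox proteins, selenoproteins (which carry selenocysteine in place of cysteine) and proteins of the response to excess light.

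At 30 min the members ranged from 5.08 to 495 FPKM with a median of 30.9, and 31 of them were at 100 FPKM or more. Together they held 0.725% of the summed FPKM before the wash, 0.452% after it, 1.47% at 30 min and 0.342% at 240 min. The approach to 30 min was gradual: 180 of the 191 had a higher value at every step from post-wash through 5, 10 and 15 min to 30 min. The way down was gradual as well, with lower values at every step from 30 to 240 min in 156, and 147 did both. The rule itself fixes the last step up and the first step down. Such courses were not counted over other genes, so they are not read as a trait of the members. Expressed as a percentage of each gene's own 30 min FPKM, the median member stood at 48.6% before the wash and 27.2% after it. It was at 51.1%, 68.5% and 81.1% over 5, 10 and 15 min, and at 62.7%, 32.8% and 19.4% over 60, 120 and 240 min.

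**Figure D1:**
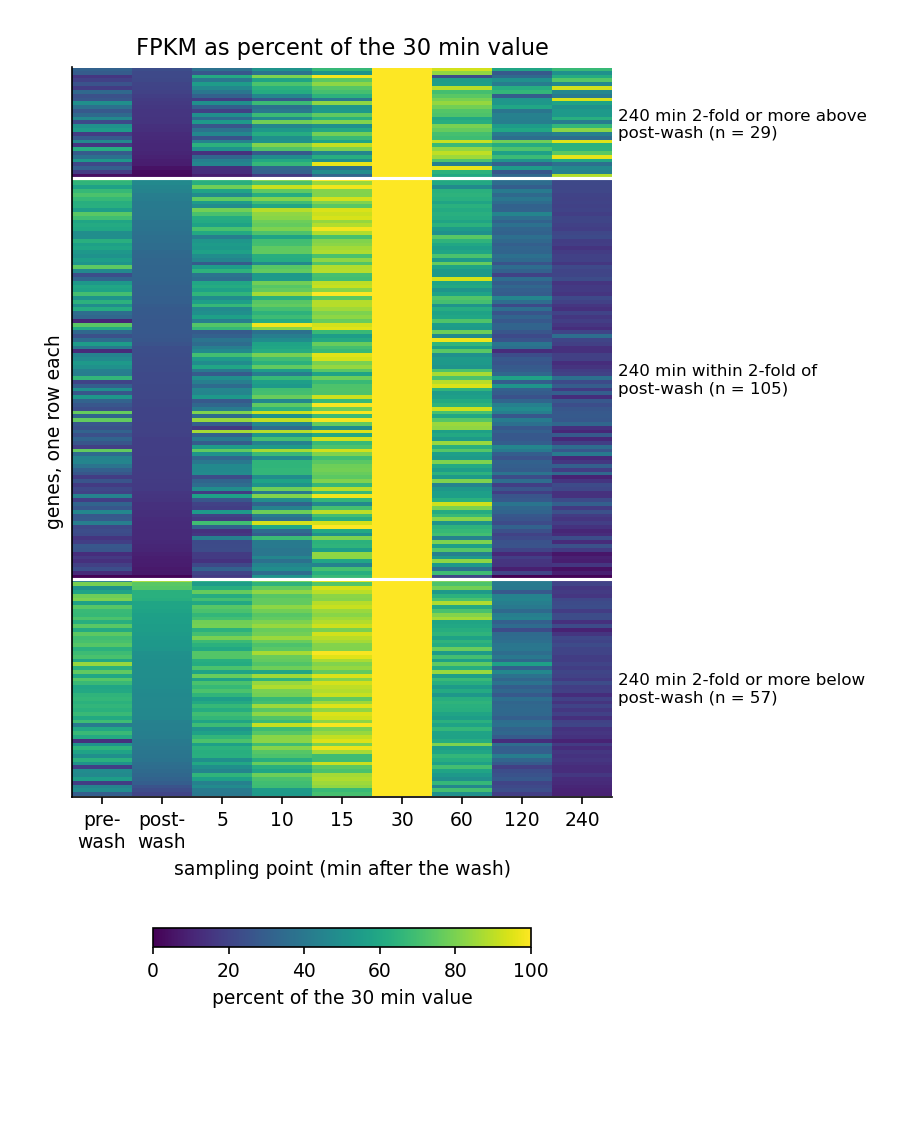
FPKM of the 191 genes (rows) at the 9 sampling points (columns) as a percentage of each gene's own value at 30 min, grouped by the 240 min level relative to post-wash (29, 105 and 57 genes) and sorted within groups by the post-wash value. The yellow 30 min column is 100% by construction; values are higher from column to column up to it in 180 genes, and the top group has the highest 240 min values (median 59.9%).

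Differences were counted when they reached 2-fold on the log2(FPKM + 1) scale, beside the share of all genes tested that did the same. Tested were the 12580 genes that reached 1 FPKM in 2 columns, all 191 members among them. At 5 min 46 members were at least 2-fold above post-wash (1.87% of all genes tested), at 10 min 110 (3.6%), at 15 min 139 (5.15%) and at 30 min 162 (8.92%). For 29 members no value up to 30 min was 2-fold above post-wash, and these qualified through low values later in the course. Only 5 were 2-fold higher at 30 than at 15 min (0.548%), and 10 were 2-fold lower at 60 than at 30 min (2.46%), whereas 171 were 2-fold lower at 120 min (6.21%) and 171 by 240 min (9.73%). Against post-wash, 100 members were still 2-fold higher at 60 min (7.41%), and at 120 min 36 were higher (4.35%) and 4 lower (10.1%). These counts use columns of the selection rule and nothing is read from them against the background.

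The maximum at 30 min was often narrow in size. The next highest value was at 15 min in 138 members, at 60 min in 44 and at another time in the others. The median margin over it was 0.24 on the log2(FPKM + 1) scale. In 68 members that margin was below 0.168, a robust SD over all genes tested of 15 min minus 10 min, and 19 members exceeded both 15 and 60 min by 0.5 or more. At the edge of the rule, BCS1 was included with 309.6 FPKM at 30 min against 309.5 at 15 min, and Cre06.g298850 at 30.89 FPKM against a highest value of 30.90 was not. RPC31 was the member with the lowest ratio, 4.0005, while Cre10.g430800 stayed outside at 3.991; Cre14.g620750 was inside with a highest FPKM of 5.08 and Cre13.g569450 outside at 4.92. In all, 65 members had ratios below 4.5, and 67 genes just outside had ratios from 3.5 to 4.

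The pre-wash column gives the level from which the cells started. All 191 members were below their 30 min value there, and 96 by 2-fold or more (5.53% of all genes tested), with a median log2 difference of 1.01 against 0.07 over all genes tested. The rule used every column but pre-wash and set 30 min as the highest. These counts and the following ones against pre-wash are therefore a description. The post-wash value was below the pre-wash value in 174 members. It was at least 2-fold lower in 30 (1.18% of all genes) and 2-fold higher in 3 (8.47%), with a median log2 difference of -0.54 against -0.00 over all genes tested; the rule used the post-wash column. Under quantile normalization 49 were 2-fold lower and 2 higher. Members 2-fold above pre-wash numbered 66 at 15 min (7.2%), 58 at 60 min (4.05%) and 8 at 120 min (2.33%), when 14 were 2-fold below (1.72%). At 240 min 10 were above (4.38%) and 107 were below it by 2-fold or more (4.94%). The 240 min column, which the rule also used, lay under the pre-wash value in 147 members, with a median log2 difference of -1.21 against 0.01 over all genes.

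The members were grouped by comparing their 240 min and post-wash values. Relative to post-wash, 29 were at least 2-fold higher (6.48% of all genes), 57 at least 2-fold lower (12.3%) and 105 within 2-fold. The 29 genes 2-fold above post-wash had a median post-wash level of 15.0% of the 30 min value, and were at 59.9% at 240 min, after 51.7% at 120 min. None of them was 2-fold below pre-wash at 240 min (4.94% of all genes), and 10 were 2-fold above it (4.38%). The 57 genes 2-fold below post-wash had medians of 48.8% post-wash and 63.4% pre-wash, and ended at 17.6%. Of these, 53 were 2-fold below pre-wash at 240 min (4.94% of all genes). The middle group ran from 22.0% post-wash to 19.0% at 240 min, so it ended near the 57 genes and differed from them more at post-wash. The rule requires a low value somewhere in the course, which was at post-wash in 65 members, at 240 min in 122 and at 120 min in 4, so the levels at both ends are tied to the selection. The grouping compares the same 2 ends. The order of the groups at post-wash and their 240 min levels against pre-wash therefore follow in part from how they were formed.

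**Figure D2:**
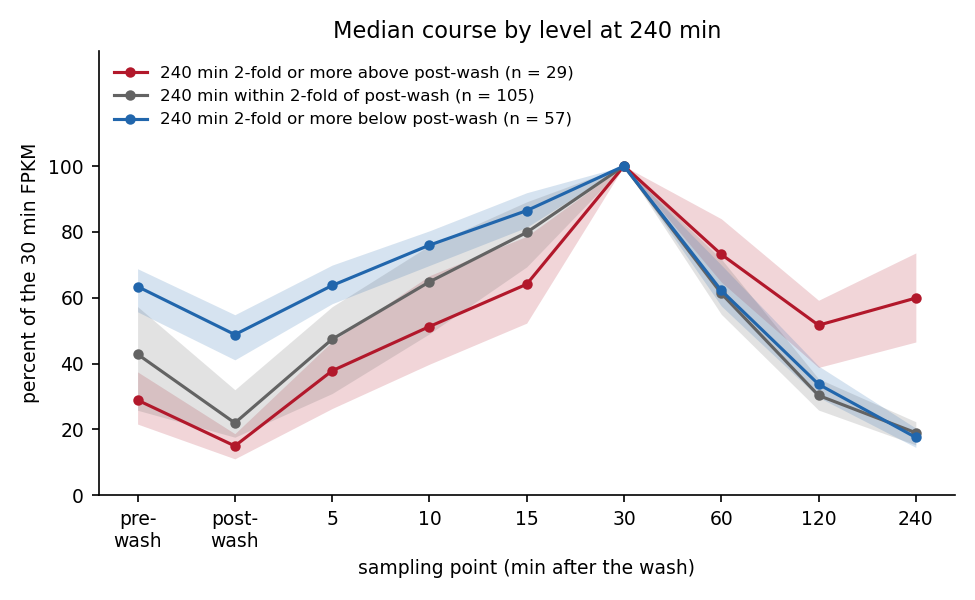
Median (lines) and interquartile range (bands) over genes of FPKM as a percentage of the 30 min value, by sampling point, for genes at least 2-fold above post-wash at 240 min (red), within 2-fold (grey) and at least 2-fold below (blue). At 240 min the red median is 59.9%, and the grey and blue medians are 19.0% and 17.6%; bands show spread between genes, not between cultures.

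**Figure D3:**
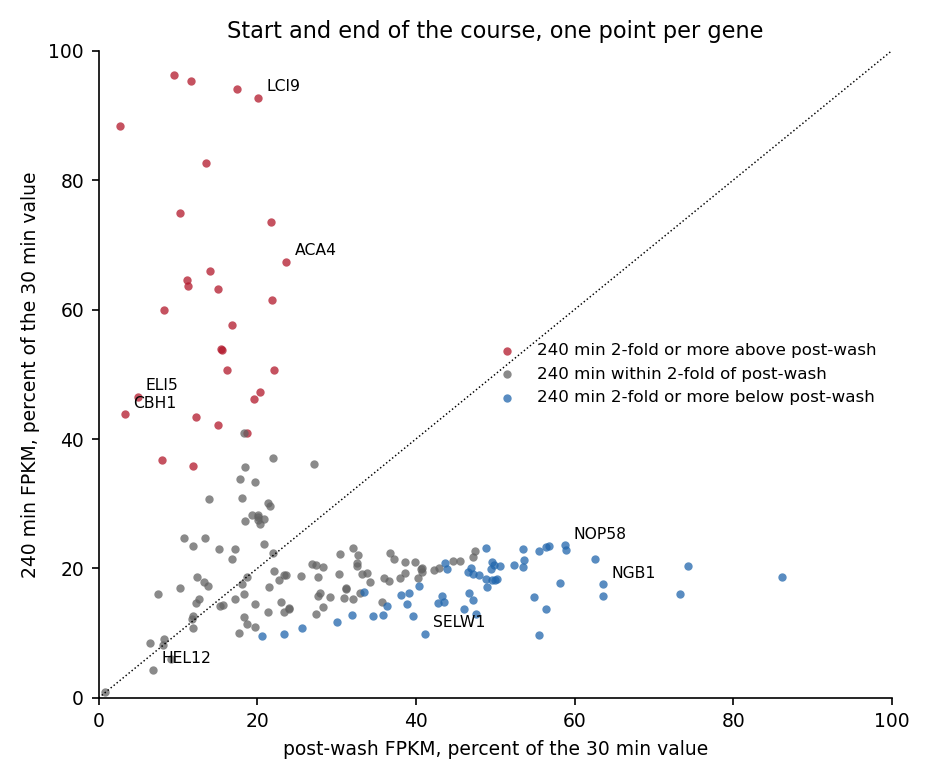
Post-wash level against 240 min level, each as a percentage of the gene's 30 min FPKM, 1 point per gene, coloured by the level at 240 min relative to post-wash; the dotted line marks equal values. The points form 2 arms, and the lowest value of the course, which the rule used, is at post-wash or 240 min in all but 4 genes: CBH1, ELI5, LCI9 and ACA4 lie on the upper arm, and NOP58, NGB1 and SELW1 on the lower right arm.

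By words in the product line and description, 10 of the 191 members fell in the RNA and translation class, 4 each in the redox, transporter and enzyme classes, 2 in the cell surface class and 1 in the light-harvesting class. Another 5 had text without a class word, and 161 had no text. As shares, the RNA and translation class made up 5.24% of the members, 2.12% of the 10978 genes with an empty name field that were tested, 0.282% of the 355 that met the level and ratio criteria with the highest value directly after the wash, 3.23% of the 93 highest at 5 min and 1.56% of the 128 highest at 240 min. In the sets with adjacent maxima it made up 4.26% of the 47 genes highest at 15 min and 3.57% of the 56 highest at 60 min, 2 genes in each, near the share of the members. It had 0 genes among the 18 highest at 10 min and the 11 highest at 120 min. None of these shares has a test. Members with any text made up 15.7%, against 16.7% of all tested genes with an empty name field. No member fell in the kinase, cyclic nucleotide and calcium, transcription factor, DNA repair, protein turnover, chaperone, cilia or repeat protein class. These classes were small, at 0.182% (repeat proteins) to 1.64% (kinases) of the tested genes with an empty name field. Their absence among 191 genes is not read as a trait. The redox, transporter and enzyme classes each made up 2.09% of the members, against 1.7%, 1.32% and 2.13% of the same tested genes. For the cell surface and light-harvesting classes the shares were 1.05% and 0.524%, against 0.346% and 0.437%.

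Of the members for snoRNPs, which carry the guide RNAs for ribosomal RNA modification, NOP58 (Cre10.g441400) and NOP10 (Cre05.g237700) were the most abundant. NOP58, a core protein of the box C/D snoRNPs that guide methylation, stood at 198 FPKM before and 158 after the wash, then at 198, 222 and 245 at 5, 10 and 15 min, 268 at 30 min, and then 163, 109 and 63.1 over 60, 120 and 240 min. NOP10, a core protein of the box H/ACA snoRNPs that guide pseudouridylation, stood at 194 FPKM before and 144 after the wash, then 206, 219.8 and 240.1 over 5, 10 and 15 min, 260.1 at 30 min, and 156, 90.5 and 59.2 at 60, 120 and 240 min. At 30 min they were at 1.70 and 1.80 times the post-wash FPKM, and they met the rule through their 240 min values, since the 30 min FPKM was 4.25 and 4.39 times as high. RNP3 (Cre03.g170750), a component of the U3 snoRNP, differed more in the early part, with 27.3 FPKM before the wash, 14.5 after it, then 42.9, 48.8 and 58.5 over 5, 10 and 15 min, 61.4 at 30 min, and then 30.9, 14.6 and 11.7 over 60, 120 and 240 min.

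Members acting on the pre-ribosome followed the same outline. UTP1 (Cre06.g254150), part of the U3 processome that cuts the ribosomal RNA precursor, stood at 10.6 FPKM before and 7.53 after the wash, 16.02 at 30 min and 3.22 by 240 min. RPA1 (Cre12.g529600), a subunit of RNA polymerase I, was at 35.7, 20.6, 51.6 and 10.8 FPKM at those 4 points, and the bystin-like BLP1 (Cre01.g063267), whose relatives in yeast and animals act in small-subunit assembly, at 22.0, 13.9, 38.6 and 7.14. RNPH2 (Cre03.g188200), a core component of the exosome that trims RNA from its 3′ end, was at 9.84, 4.54, 17.8 and 3.36 FPKM. Large-subunit assembly was represented by NGB1 (Cre10.g459500), a nucleolar GTP-binding protein, at 45.0 FPKM before and 48.9 after the wash, 76.9 at 30 min, and then 41.7, 21.3 and 13.5 over 60, 120 and 240 min. EIF6 (Cre13.g585150), which in yeast and animals keeps the large subunit from joining too early, was at 88.6, 70.5, 174, 140.0, 62.2 and 30.1 FPKM at the same points. NOP58, NOP10, RNP3, UTP1, RPA1, BLP1, RNPH2 and NGB1 are the 8 members with nucleolar or ribosome assembly words in their text. Of these, every one except NGB1 was lower after the wash than before it, and all 8 were lower at 240 min than at any earlier point. Of all 191 members, 174 were lower after the wash, and 122 had their lowest value from post-wash on at 240 min. These counts are therefore not read as a trait of the 8.

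Further RNA-related members were HEL12 (Cre02.g118300), a DEAD box RNA helicase, the RNA-binding protein AML1 and the La protein LAL1, of a family that binds the ends of new RNA polymerase III transcripts. HEL12 had the third largest difference of any member over post-wash, 3.68 on the log2(FPKM + 1) scale. It stood at 22.6 FPKM before the wash, 6.59 after it, then 29.7, 46.8 and 67.8 over 5, 10 and 15 min, 95.9 at 30 min, and then 35.3, 8.45 and 4.17 over 60, 120 and 240 min. LAL1 (Cre17.g724200) stood at 57.0 FPKM before and 46.5 after the wash, 88.8 at 30 min and 18.3 by 240 min, and AML1 (Cre07.g338150) at 2.73 FPKM after the wash, 14.9 at 30 min and 6.08 at 240.

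HEL12 was 1 of 12 members with a HEL symbol, a symbol under which the table lists mostly genes without a product line and otherwise helicases, nearly all of the DEAD/DEAH-box type. These were singled out after their values were seen. HEL65 (Cre17.g727700) was the most abundant, at 37.8 FPKM before and 26.3 after the wash, then 51.0, 69.0 and 89.8 over 5, 10 and 15 min, 127 at 30 min, and 64.6, 23.7 and 12.2 at 60, 120 and 240 min. HEL1 stayed at 112 FPKM at 60 min after 115 at 30 min, and was at 23.8 at 240 min. HEL57 stood at 29.1 FPKM post-wash, 84.0 at 30 min and 10.7 by 240 min, and HEL34 at 16.03, 68.7 and 9.08. The remaining HEL members, HEL13, HEL41, HEL44, HEL51, HEL56, HEL58 and HEL64, peaked between 13.8 (HEL41) and 32.8 FPKM (HEL51). Each of the 12 was lower after the wash than before it. At 240 min 9 were within 2-fold of post-wash, 3 (HEL44, HEL57 and HEL65) were at least 2-fold below it, and none was above. Of all 191 members, 174 were lower after the wash and 105 were within 2-fold of post-wash at 240 min. Neither count is therefore read as a trait of the HEL members.

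**Figure D4:**
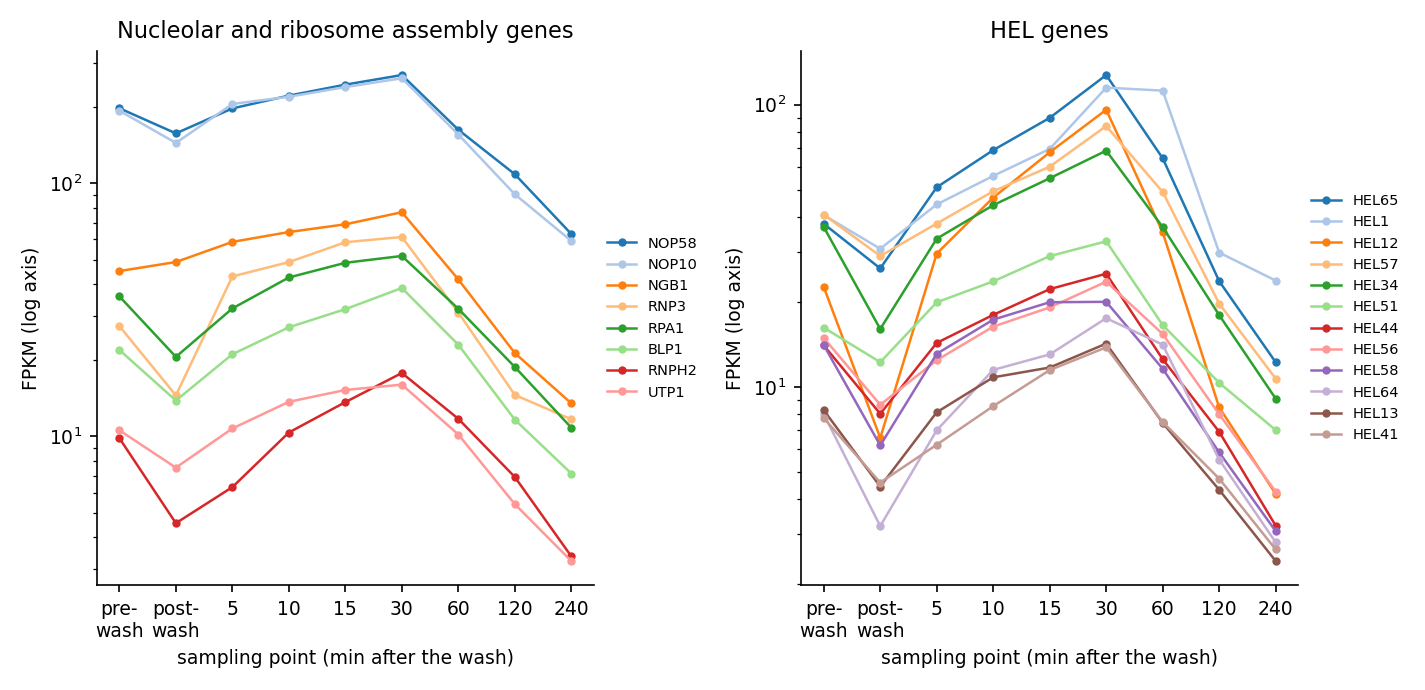
FPKM (log axis) of the 8 nucleolar and ribosome assembly members (left) and the 12 members with a HEL symbol (right) at each sampling point, 1 line per gene and 1 value per point for both cultures together. NOP58 and NOP10 run close together, from 158 and 144 FPKM post-wash to 268 and 260.1 at 30 min, and every one of the lines is at its lowest at 240 min.

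The same lists were counted over the whole table. Nucleolar or ribosome assembly words stood in the text of 29 genes, a list drawn up after values were seen, and 28 were tested. Of these, 23 (82.1%) had their highest value of the course at 30 min, against 17.4% of all genes tested, and among the 20 that are not members it was 15 (75%). Among the 20 non-members, 3 (15%) were 2-fold higher at 30 min than post-wash, against 8.92% of all genes tested. Another 1 (5%) was lower, against 10.1%, and the median log2 difference was 0.70. Relative to pre-wash, 0 of the 20 were 2-fold higher at 30 min, against 5.53% of all genes, and 0 lower. There the median log2 difference was 0.33, and it was -0.34 for post-wash against pre-wash. For 240 min against 30 min, 16 (80%) were 2-fold lower, against 9.73% of all genes, and 0 higher, against 7.78%, with the median at -1.62. Of these, CBF5, in yeast the pseudouridine synthase that partners NOP10, and NOP56 were picked after their values were seen. CBF5 stood at 87.3 FPKM post-wash, 153 at 30 min and 41.0 by 240 min. NOP56, the partner of NOP58, was at 197, 243 and 73.3 FPKM. Other genes of the list differed: NOP1 was highest at 5 min, at 653 FPKM, with 570 post-wash, 649 at 30 min and 179 at 240 min. DBP2 was highest post-wash, at 26.2 FPKM, with 14.8 at 30 min and 12.7 at 240 min.

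Of 48 tested genes with a HEL symbol, 27 (56.2%) were highest at 30 min, and of the 36 that are not members 15 (41.7%). Of the non-members 3 (8.33%) were 2-fold above post-wash at 30 min, a share near the 8.92% of all genes tested. None (0) was 2-fold below, against 10.1% (median log2 difference 0.36). Relative to pre-wash, 1 (2.78%) was 2-fold higher at 30 min, against 5.53% of all genes, and 0 lower. There the median log2 difference was 0.20, and it was -0.22 for post-wash against pre-wash. The 240 min value lay 2-fold below that at 30 min in 11 (30.6%, against 9.73% of all genes) and above it in 0 (against 7.78%), with the median at -0.46. The whole RNA and translation class, drawn up from keywords, held 378 tested genes, of which 136 (36%) were highest at 30 min, or 126 of 368 (34.2%) without the members. Without the members its median log2 differences were 0.25 for 30 min over post-wash and -0.33 for 240 min over 30 min. In the former 22 of the 368 genes (5.98%) were 2-fold higher, a smaller share than the 8.92% of all genes, and 10 (2.72%) lower, against 10.1%. In the latter 6 (1.63%) were 2-fold higher, against 7.78%, and 68 (18.5%) lower, against 9.73%. Without the members, 14.4% of 354 tested genes of the redox class and 17.5% of 228 of the transporter class were highest at 30 min, near the 17.4% of all genes. By size the transporter class differed more. At 30 min 43 (18.9%) of its non-members were 2-fold above post-wash, against 8.92% of all genes, and 27 (11.8%) below, against 10.1%. In the redox class 40 (11.3%) were above and 24 (6.78%) below. Relative to pre-wash, 28 transporter genes (12.3%) and 43 redox genes (12.1%) were 2-fold higher at 30 min, against 5.53% of all genes. Lower were 6 (2.63%) and 7 (1.98%).

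Carotenoid synthesis and the response to excess light were represented by CBH1 and ELI6, and ELI5 carries a related symbol. CBH1 (Cre04.g215050) encodes beta-carotene hydroxylase, which forms zeaxanthin, a pigment that helps dissipate excess light energy. It was at 16.03 FPKM before the wash, 2.999 after it, then 11.9, 28.1 and 45.1 over 5, 10 and 15 min, 90.9 at 30 min, and then 58.9, 24.2 and 39.8 over 60, 120 and 240 min. Its 30 min value was the furthest above post-wash of all members on the log2(FPKM + 1) scale, by 4.52, and 5.67 times the pre-wash FPKM. ELI5 (Cre04.g211850), listed without a product line, was at 5.69 FPKM before the wash, 0.918 after it, 2.59, 6.199 and 6.94 at 5, 10 and 15 min, 18.7 at 30 min, and then 18.1, 10.3 and 8.72 over 60, 120 and 240 min. These were the members with the largest negative wash differences, -2.09 for CBH1 and -1.80 for ELI5 on the log2 scale.

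ELI6 (Cre17.g740950), described as a light-harvesting-like gene induced by high light, differed little between both wash samples. It stood at 16.1 FPKM before and 17.7 after the wash, then 34.6, 45.6 and 54.4 over 5, 10 and 15 min, 80.9 at 30 min, and then 72.3, 23.9 and 18.2 over 60, 120 and 240 min. At 240 min ELI6 was 0.03 above its post-wash level on the log2 scale, while CBH1 and ELI5 were 3.35 and 2.34 above theirs on the log2 scale. Among the genes with a filled name field that met the same rule was ZEP1, zeaxanthin epoxidase, which acts on the product of CBH1, at 28.3 FPKM before and 13.6 after the wash, 76.7 at 30 min and 43.6 by 240 min.

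Both members with a link to low CO2 in their description were among those 2-fold above post-wash at 240 min. LCI9 (Cre09.g394473), a low-CO2-inducible protein with a starch-binding domain, stood at 20.8 FPKM before and 23.6 after the wash, then 54.9, 74.6 and 86.4 over 5, 10 and 15 min, 118 at 30 min, and then 105, 73.3 and 109 over 60, 120 and 240 min. ACA4 (Cre10.g459200), a plasma membrane P-type cation ATPase, was the second most abundant member, at 129.6 FPKM before and 97.0 after the wash, then 153, 209.8 and 274 over 5, 10 and 15 min, 409.9 at 30 min, and then 383, 242 and 276 over 60, 120 and 240 min. Both were higher at 240 than at 120 min, as were 35 of all 191 members, a count made over members only. Low-CO2 words stood in the text of 41 tested genes, a list drawn up after values were seen. Of the 39 that are not members 9 (23.1%) were highest at 30 min, against 17.4% of all genes. At 30 min 15 of the 39 (38.5%) were 2-fold above post-wash, against 8.92% of all genes, and 4 (10.3%) below, against 10.1%. Relative to pre-wash, 22 (56.4%) were 2-fold higher at 30 min, against 5.53%, and 1 (2.56%) lower. By 240 min 16 (41%) were 2-fold above pre-wash, against 4.38%, and 0 below, against 4.94%.

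The other transporters with a product line had lower levels. CIT1 (Cre12.g512950), annotated as a chromate ion transporter, stood at 9.52 FPKM before and 6.503 after the wash, then 24.5, 32.9 and 41.8 over 5, 10 and 15 min, 53.2 at 30 min, and then 37.6, 21.8 and 23.1 over 60, 120 and 240 min. MFT11 (Cre08.g379550), a sodium-dependent phosphate transporter, was at 9.72 and 6.34 FPKM before and after the wash, 30.4 at 30 min and 8.41 by 240 min. The mitochondrial carrier Cre17.g747797, possibly for carnitine esters, was at 12.4, 8.23, 24.3 and 4.69 FPKM at those points, and PPT2 (Cre06.g263850), related to chloroplast triose phosphate translocators, at 57.9, 34.0, 112 and 24.8. CIT1 was the only one of these 4 that was still 2-fold above post-wash at 240 min.

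Among redox proteins, NRX2 (Cre02.g093750), a nucleoredoxin with thioredoxin motifs, stood at 18.1 FPKM before and 10.6 after the wash, then 19.2, 48.2 and 76.8 over 5, 10 and 15 min, 130.1 at 30 min, and then 108, 20.1 and 10.7 over 60, 120 and 240 min. At 240 min it was within 0.02 of its post-wash level on the log2 scale. BCS1 (Cre05.g234661), related to a yeast assembly factor of respiratory complex III, stood at 66.8 FPKM before and 38.0 after the wash, then 95.4, 184 and 309.5 over 5, 10 and 15 min, 309.6 at 30 min, and then 200.4, 97.6 and 45.6 over 60, 120 and 240 min, so that 15 and 30 min cannot be ranked. The flavin-containing amine oxidase AOF1 (Cre09.g389250) was at 33.5 and 13.8 FPKM before and after the wash, 75.1 at 30 min and 9.35 by 240 min.

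The 2 selenoprotein members differed from most others in the wash. SELW1 (Cre12.g540250), selenoprotein W1, was at 20.3 FPKM before the wash, 60.7 after it, then 106, 122 and 139.8 over 5, 10 and 15 min, 148 at 30 min, and then 90.7, 19.3 and 14.7 over 60, 120 and 240 min. MSRA1 (Cre13.g570900), a selenocysteine-containing methionine sulfoxide reductase that repairs oxidised methionine, was at 5.24, 10.3, 20.4, 26.5, 29.0, 42.8, 31.8, 5.45 and 5.90 FPKM at the same 9 points. Both had higher values already after the wash, SELW1 by 1.53 and MSRA1 by 0.85 on the log2 scale, and both were within 2-fold of their pre-wash level at 120 and 240 min. The thioredoxin reductase NTR1, a selenoprotein with a filled name field that met the same rule and was picked after its values were seen, stood at 13.5 FPKM before and 26.3 after the wash, 53.7 at 30 min and 10.97 at 120 min. Selenoprotein or selenocysteine stood in the text of 11 tested genes, a list drawn up after values were seen. Of the 9 that are not members 5 (55.6%) were highest at 30 min, against 17.4% of all genes, and 1 (11.1%) was 2-fold higher after the wash than before it, against 8.47%.

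**Figure D5:**
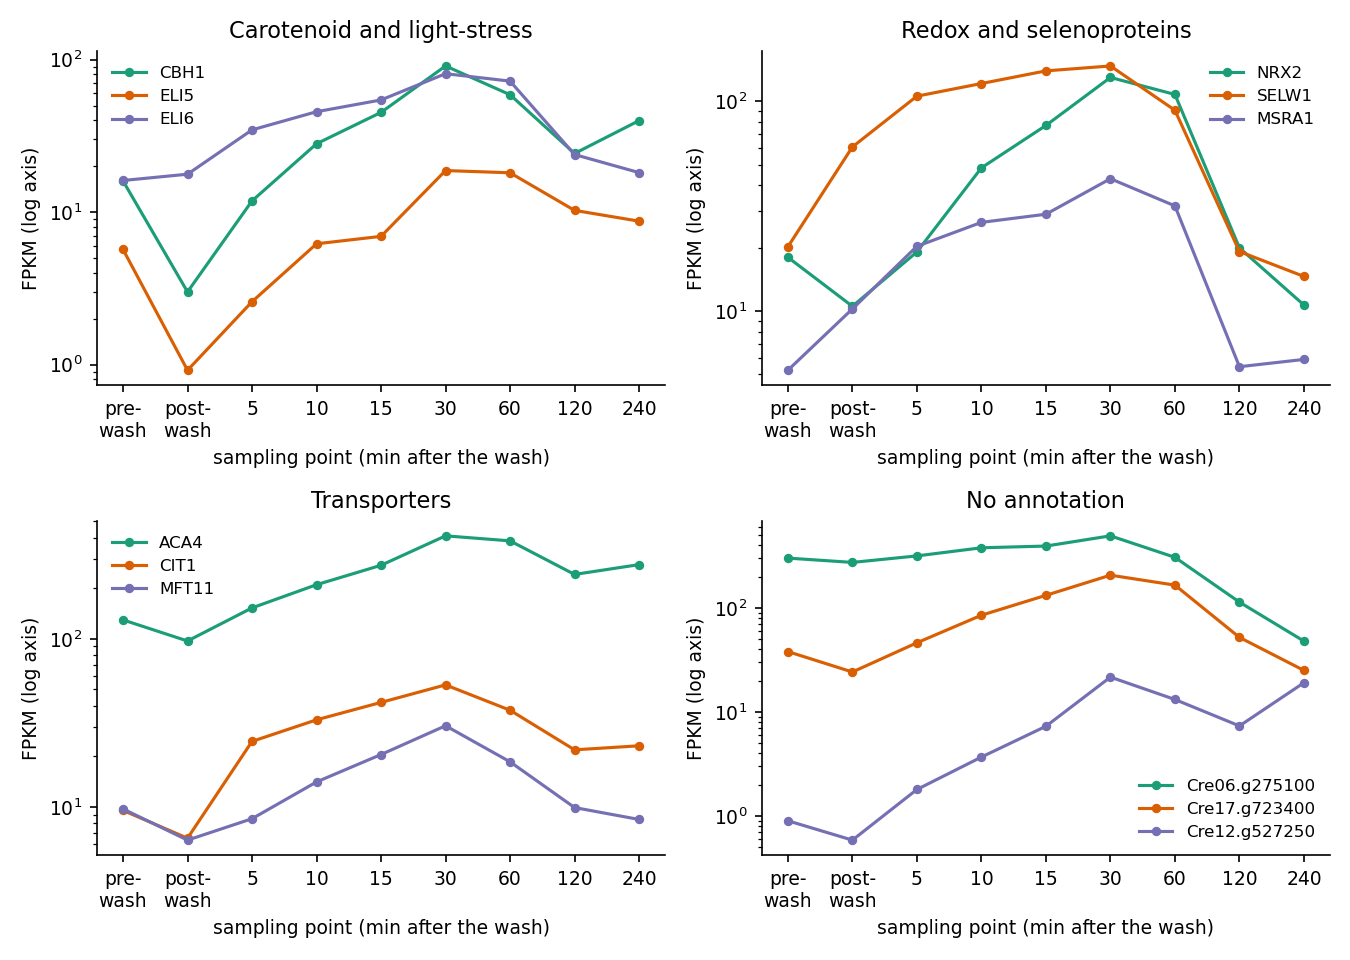
FPKM (log axis) at each sampling point for 12 members in 4 panels: CBH1, ELI5 and ELI6; NRX2, SELW1 and MSRA1; ACA4, CIT1 and MFT11; and 3 genes without annotation. After the wash CBH1 and ELI5 are at 2.999 and 0.918 FPKM, their lowest values, while SELW1 and MSRA1 are above their pre-wash values; Cre12.g527250 is at 19.1 FPKM at 240 min after 21.6 at 30 min.

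Enzymes of lipid, quinone and nucleotide synthesis made up the rest of the annotated members with the cell surface proteins. CFA1 (Cre06.g281250), a cyclopropane fatty acid synthase, stood at 7.41 FPKM before and 3.19 after the wash, 22.9 at 30 min, 21.2 at 60 min and 7.04 by 240 min. UMM4 (Cre05.g245450), a methyltransferase of ubiquinone and menaquinone synthesis, was at 4.02, 2.24, 14.4, 10.5 and 7.76 FPKM at those points. The CTP synthase PYR7 (Cre09.g406050), which makes a building block of RNA, was at 53.5, 45.3, 79.7, 64.8 and 18.7 FPKM. PRL2 (Cre12.g559750) and PRL6 (Cre13.g589400), predicted extracellular proteins similar to pathogenesis-related protein 1, were at 2.45 and 4.18 FPKM post-wash, 30.7 and 24.9 at 30 min, and 11.3 and 14.4 by 240 min.

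The members 2-fold higher after the wash were SELW1, Cre03.g210513 and Cre12.g554400, the last at 67.7 FPKM before and 136 after it. Its log2 difference of 1.00 was at the limit, and at 0.68 under quantile normalization it was not counted. POD1 and Cre06.g293100, with no product line, were also higher after the wash than before it, at 5.23 against 2.68 FPKM and 6.90 against 4.13, and at 14.6 and 23.0 at 30 min.

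Of the members with neither text nor symbol, Cre06.g275100 was the most abundant of all 191. It stood at 302 FPKM before and 275 after the wash, then 317, 379.7 and 394 over 5, 10 and 15 min, 495 at 30 min, and then 307, 114 and 48.0 over 60, 120 and 240 min. Its 240 min value was 2.49 below post-wash on the log2 scale, the furthest of all members. Cre07.g325712, Cre17.g726850 and Cre03.g210513 were at 185, 182 and 199.9 FPKM at 30 min. Cre03.g210513 stood at 21.2 FPKM before and 55.3 after the wash, next to SELW1 in the size of its wash difference, and at 37.4 at 240 min.

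Cre12.g527250 combined a low start with a high end. It stood at 0.898 FPKM before and 0.585 after the wash, then 1.80, 3.68 and 7.29 over 5, 10 and 15 min, 21.6 at 30 min, and then 13.2, 7.34 and 19.1 over 60, 120 and 240 min. Of all members it lay furthest above post-wash at 240 min, by 3.67 on the log2 scale. Cre10.g450500 stood at 5.03 FPKM post-wash, 28.8 at 30 min and 27.1 by 240 min, and Cre08.g384600 at 0.849, 8.88 and 8.55. Cre02.g118400, picked after its values were seen, was listed at 0.0389 FPKM before and 0.0518 after the wash, then 1.06, 3.22 and 4.21 over 5, 10 and 15 min, 6.25 at 30 min, and then 1.32, 0.0184 and 0.0596 over 60, 120 and 240 min, so that it was near 0 at either end.

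After Cre12.g527250, at 3.84 on the log2 scale, the largest differences of 30 min over post-wash among members without annotation were in Cre13.g569400, from 2.80 FPKM post-wash to 42.8 at 30 min and 3.60 by 240 min, in Cre12.g505050, from 7.49 to 90.2 and 8.17, in Cre14.g615950, from 11.02 to 107 and 18.1, and in Cre05.g239450, from 3.58 to 39.5 and 2.36. The sharpest maximum was that of Cre03.g173550, at 18.7 FPKM at 15 min, 33.5 at 30 min and 15.9 at 60 min. Cre03.g144184 was at 22.8, 37.8 and 22.8 FPKM at those points, Cre01.g014100 at 4.57, 10.3 and 5.63, Cre12.g551100 at 63.3, 95.8 and 61.3, and FAO5 (Cre04.g221550) at 80.3, 120.3 and 53.6. Cre13.g572401, also among the sharpest, stood at 9.10 FPKM post-wash, 60.7 at 30 min and 38.3 by 240 min.

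In 4 genes without annotation the post-wash value was well under the pre-wash value and the 5 min value near or above it. Cre17.g738650 was at 26.5 FPKM before the wash, 6.98 after it, 27.9 at 5 min, 34.6 at 30 min and 9.67 by 240 min. Cre17.g711350 was at 14.6, 3.55, 14.5, 19.3 and 5.26 FPKM at those points, and Cre17.g698299 at 19.0, 5.01, 21.2, 24.98 and 6.85. The 30 min value was 1.31, 1.32 and 1.32 times the pre-wash value in the 3 genes, and whether reads were shared between near-identical copies was not tested. Cre12.g487200 was at 35.8 FPKM before the wash, 10.4 after it, 58.0 at 5 min, 83.5 at 30 min and 15.6 by 240 min.

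In the RefSeq gene table of assembly Chlamydomonas_reinhardtii_v5.5, which matched all 191 members, 10 members lay next to another member, in 5 pairs whose annotated spans do not overlap. A share for other genes is not given, so the number of pairs is not read as a trait of the members. SELW1 and HEL58 (Cre12.g540200) are neighbours with different courses, since HEL58 was at 14.1 FPKM before the wash, 6.19 after it, 20.01 at 30 min and 3.08 by 240 min. NOP58 lies beside Cre10.g441450, which was at 18.4, 11.01, 25.6 and 5.15 FPKM at those points. Beside CIT1 lies Cre12.g507333, which was at 6.71 FPKM before the wash, 6.56 after it, 19.6 at 5 min, 35.6 at 30 min and 12.7 by 240 min. Cre12.g532314 and Cre12.g532327 were at 15.8 and 32.9 FPKM at 30 min and 2.20 and 4.80 by 240 min. Cre12.g554400 had 136 FPKM post-wash and 158 at 30 min, and its neighbour Cre12.g554450 had 9.22 and 44.2. The sources do not say whether strand was used in counting.

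A further neighbouring pair joins a member to a gene with a filled name field that met the same rule. Cre17.g723400 was at 38.1 FPKM before the wash, 24.2 after it, then 46.3, 85.2 and 132 over 5, 10 and 15 min, 207 at 30 min, and then 166, 52.2 and 25.1 over 60, 120 and 240 min. SULTR2 (Cre17.g723350), a sulfate transporter beside it, was at 23.1, 11.02, 24.4, 59.1, 99.7, 132, 86.6, 30.0 and 17.1 FPKM at the same points. From post-wash on, both genes were higher at each sampling up to 30 min and lower at each one after it. Both met the rule that set 30 min as the highest, and 147 of all 191 members had such a course. The shared course is therefore not read as a trait of the pair.

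Among the 1748 genes with a filled name field, 245 met the level and ratio criteria and 19 of these (7.76%) were highest at 30 min, against 191 of 899 (21.2%) of those with an empty field. The named genes were more often highest at 5 min, in 107 cases, than at any other point, and this difference in shares has no test. The most abundant of the 19 were LCIB and LCIC, proteins of the CO2-concentrating mechanism, at 827 and 537 FPKM post-wash, 3477 and 2165 at 30 min, and 1529 and 934 by 240 min. FAD7, a chloroplast fatty acid desaturase, was at 106, 532 and 221 FPKM, the starch synthase gene STA2 at 97.5, 411 and 239.6, and PRMT1, a protein arginine methyltransferase, at 42.0, 111 and 13.2.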

How the data were processed

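Polyadenylated RNA was sequenced on an Illumina HiSeq instrument according to the labels, and the authors deposited FPKM per gene and sampling point. The submitters' processing notes name STAR 2.4.1 and Cuffdiff 2.0.2, and gene identifiers are of annotation v5.6 per the file headers; scaling between libraries, strand and genome build are not given in the sources. Both cultures of a group share 1 column, so depth and replicate spread are unknown. Another 9 columns belong to other samples and were not used.

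Members and lists were chosen with earlier results of these data known. Differences are on log2(FPKM + 1), which understates those of weakly expressed genes, and ratios beside single genes are of plain FPKM. Low genes were filtered out by requiring 1 FPKM in 2 columns (12580 genes left). Members were put in the first matching of 14 keyword classes. By rule, the text names the 10 members highest at 30 min, the 10 furthest above post-wash, the 8 sharpest, the 6 furthest above post-wash at 240 min, the 6 with the largest wash difference each way, up to 4 per class and all neighbours, 55 in all, and draws on the 10 most abundant named genes of the same rule. The nucleolar, HEL, selenium and low-CO2 genes outside this were chosen after their values were seen, as were AML1 and the genes at the limits of the rule. Python 3.11.15 and pandas 2.3.3 were used, and the selection was tested on simulated flat courses raised at 30 min alone. That simulation does not cover gradual courses, ratios near 4 or narrow margins over the next highest value. Alternatives were another pseudocount, other level and fold limits, quantile normalization, median-of-ratios scaling and inclusion of pre-wash. The RefSeq gene table matched 17738 identifiers and served to find neighbours. Promoter and protein sequences were not used here.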

Additional observations from a re-analysis of the deposited data

How the results depend on the processing

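Without replicate columns no count has an error, and the 2-fold limit is a size, not a test. The number of genes highest at 30 min was 191 as reported, 18 with a ratio of 8 or more in place of 4, and 123 when 30 min had to exceed the next highest value by 0.168 on the log2 scale (a limit chosen after seeing the data); fewer genes can meet either limit by construction. It was 273 with a pseudocount of 0.1, 146 under quantile normalization (137 of them shared with the 191), 177 under median-of-ratios scaling, 179 with a minimum of 10 FPKM, 195 with no minimum and 196 with pre-wash counted as part of the course. Leaving out genes with a symbol among the synonyms left 130, and leaving out those with any text as well left 129, both chosen after seeing the data. Quantile normalization put the median post-wash minus pre-wash difference of all genes at -0.12 (log2). With it, members 2-fold apart by the wash numbered 51 in place of 33, with 49 lower in place of 30 and 2 higher in place of 3, and those 2-fold lower at 60 than at 30 min 4 in place of 10; the cause was not tested. Of 47 counts under these other settings, those chosen after seeing the data apart, 43 stayed within 1.5 times the reported count. Of 495 single-gene values 115 moved by more than the robust SD of 15 min minus 10 min over all genes, and 0 of the 2-fold differences changed direction. No paired analysis was possible because the cultures share 1 column per group, and leaving out single cultures was not run for the same reason.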
